A study of Rattus norvegicus with 15 samples.

Results

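A pair of lines of cultured rat aortic smooth muscle cells (SMC) were compared by RNA-seq: a line named Myocd-LSD1, with 4 libraries, and a line named Myocd-LSD1NF, with 4 libraries. These are 8 of the 15 libraries of the series, chosen by their labels; the others are 3 libraries of SMC treated with PDGF-BB and 4 of control SMC. The series design names a fusion protein of Myocd and LSD1 by which H3K4me2 at SMC genes was demethylated. Both lines were grown in serum, starved of serum and insulin for 72 h before harvest and left untreated, and so were the control cells, whose cell line label is WT. PDGF-BB cells were starved for 48 h and then given 30 ng/ml PDGF-BB for 24 h. What NF stands for, how the constructs were delivered and driven, whether a line is 1 clone, and the strain, sex and age of the rats, are things the sources used here do not give. The contrast of the lines asks what differs between cells that were both labelled with a Myocd-LSD1 construct.

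Myocardin, the product of Myocd, is a coactivator of serum response factor (SRF). SRF binds CArG boxes, short motifs of CC, a run of A and T bases and GG, in the promoters and introns of contractile genes, and myocardin bound to SRF turns these genes on in SMC. LSD1, the product of Kdm1a, removes methyl groups from lysine 4 of histone H3, where dimethylation (H3K4me2) marks active or poised regulatory regions. In the aorta, contractile SMC hold vessel tone through actin, myosin and calcium and cyclic GMP signalling, and lay down elastin and collagen. In culture or after injury the same cells can lower these genes and turn to growth, migration and matrix remodelling.

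Of the promoters, 4 are shown because their genes carry the contrast: Acta2 and Srf, as a target gene and the gene of its DNA-binding factor, and Rgs4 and Rgs5, the neighbouring genes with the largest falls. Each is the RefSeq promoter window of the GRCr8 build, 250 bases before to 50 after the gene start, written 5′ to 3′ on the gene's strand. Capitals mark a CArG box, searched on both strands as CC, 6 bases that are A or T, and GG, or the same motif with 1 G or C among the 6 bases.

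Acta2, chr1:241172454-241172753 (minus strand):
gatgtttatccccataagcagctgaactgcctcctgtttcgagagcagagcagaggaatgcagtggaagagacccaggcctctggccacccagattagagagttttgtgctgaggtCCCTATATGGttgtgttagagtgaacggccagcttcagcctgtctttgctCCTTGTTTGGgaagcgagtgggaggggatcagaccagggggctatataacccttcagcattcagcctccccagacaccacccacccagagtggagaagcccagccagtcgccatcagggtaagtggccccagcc
Srf, chr9:21923826-21924125 (plus strand):
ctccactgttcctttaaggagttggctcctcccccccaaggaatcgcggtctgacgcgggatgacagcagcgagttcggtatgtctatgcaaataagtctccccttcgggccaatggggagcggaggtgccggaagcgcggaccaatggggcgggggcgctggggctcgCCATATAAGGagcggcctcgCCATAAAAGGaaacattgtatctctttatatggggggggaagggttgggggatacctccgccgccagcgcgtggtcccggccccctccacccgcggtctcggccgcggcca
Rgs4, chr13:84475835-84476134 (minus strand):
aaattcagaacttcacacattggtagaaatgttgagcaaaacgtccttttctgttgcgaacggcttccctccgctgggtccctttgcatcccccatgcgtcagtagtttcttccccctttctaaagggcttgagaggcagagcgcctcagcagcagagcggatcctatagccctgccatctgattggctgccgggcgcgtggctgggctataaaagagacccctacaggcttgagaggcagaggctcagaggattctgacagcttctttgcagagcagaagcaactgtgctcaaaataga
Rgs5, chr13:84380827-84381126 (plus strand):
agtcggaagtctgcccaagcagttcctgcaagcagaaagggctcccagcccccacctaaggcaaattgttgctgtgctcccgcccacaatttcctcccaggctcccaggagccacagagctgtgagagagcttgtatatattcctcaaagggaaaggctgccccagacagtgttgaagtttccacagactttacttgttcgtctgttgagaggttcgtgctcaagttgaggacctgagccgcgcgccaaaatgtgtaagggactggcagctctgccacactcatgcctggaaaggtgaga

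The Acta2 window held 0 full CArG boxes and 2 matches with 1 G or C, CCCTATATGG and CCTTGTTTGG. The Srf window held 2 full boxes, CCATATAAGG and CCATAAAAGG. No match of either kind was found in the windows of Rgs4 and Rgs5, which says only that these letters are not in these 300 bases. A full box was held by 1.92% of the 1040 windows of genes lower in Myocd-LSD1, 1.13% of the 1595 of genes higher and 1.17% of the 5631 of tested genes that were not called, against 1.65% of all 24206 windows with a unique symbol. With 1 G or C allowed the shares were 9.62% for genes lower, 7.40% for genes higher and 7.92% for genes not called, against 9.21% of all windows. These shares are a description, with no test. Of 26 windows of the contractile lists given below, 2 held a full box and 3 held a match with 1 G or C allowed.

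Levels are TPM as deposited, which are scaled for length and sum alike across libraries, so they keep no sequencing depth. The values of a line are always given in the order of its libraries 1 to 4. Fold changes are differences of log2(TPM + 1), a scale that makes changes of low genes look smaller, given as Myocd-LSD1 minus Myocd-LSD1NF ± SE with n = 4 libraries in each line. Adjusted p-values come from limma, over 12207 genes with at least 1 TPM in at least 3 of the 15 libraries, and a gene was called at an adjusted p under 0.05. SE and p-values rest on a spread estimated over all 15 libraries, control and PDGF-BB included, and not on the libraries of these lines alone. Whether the 4 libraries of a line are separate cultures is not stated in the labels, so that spread may be technical. Where Myocd-LSD1 libraries 2 and 4 are left out, only libraries 1 and 3 of that line remain. The spread then rests mostly on the other groups, so a smaller p-value in that fit is no sign of a firmer difference.

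Libraries of 1 line were not equally alike. Within Myocd-LSD1, libraries 2 and 4 correlated at 0.987 across tested genes and libraries 1 and 3 at 0.981, while the other pairs correlated at 0.961 to 0.978. Within Myocd-LSD1NF, libraries 1 to 3 correlated at 0.983 to 0.987 with each other and at 0.963 to 0.967 with library 4. Correlations between the lines were 0.897 to 0.941. No pair of libraries shared more than 35 identical values at or above 1 TPM, so none was counted as a copy.

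The lines differed in 3877 of 12207 genes (31.8%), of which 2331 were higher in Myocd-LSD1 (19.1%) and 1546 lower (12.7%). A change of at least 2-fold was found in 1286 (10.5%), 684 higher and 602 lower, and one of at least 8-fold in 89 higher and 68 lower. The median log2 fold change of all tested genes was 0.07. Higher genes made up 60.1% of the calls as deposited, 48.7% under median-of-ratios scaling (2033 higher, 2141 lower) and 52.4% under quantile normalization (2151 higher, 1951 lower). Without Myocd-LSD1 libraries 2 and 4 there were 2999 calls, 2063 higher and 936 lower, and without Myocd-LSD1NF library 4 there were 4039. Values of the lines did not overlap in 3291 genes (27%).

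**Figure D1:**
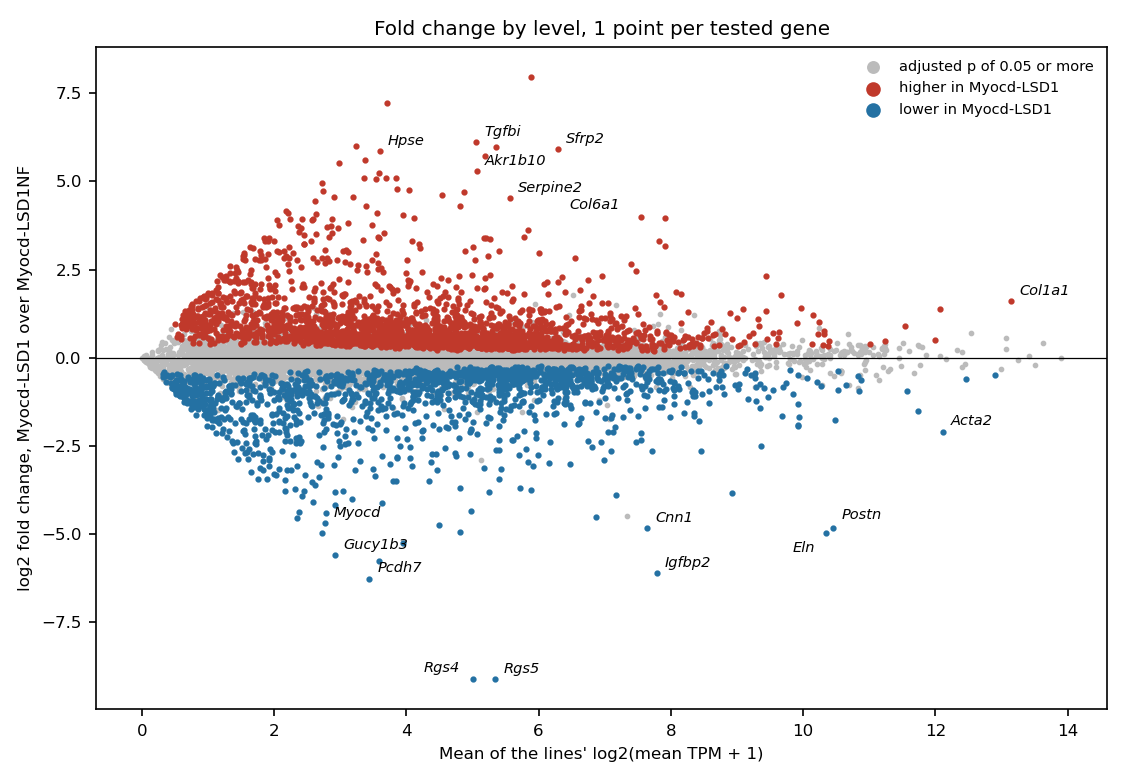
Log2 fold change, Myocd-LSD1 over Myocd-LSD1NF, against the mean level of the lines as log2(mean TPM + 1), with 1 point per tested gene. Red points are the 2331 genes called higher, blue the 1546 called lower and grey the rest; Rgs4 and Rgs5 lie lowest, at -9.09 and -9.10.

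Control SMC were used to place each line. On the log2 scale the control mean was nearer to Myocd-LSD1NF in 3268 of the 3877 called genes (84.3%), and nearer to Myocd-LSD1 in 609, of which 422 were higher in Myocd-LSD1 and 187 lower. Among tested genes that were not called, it was nearer to Myocd-LSD1NF in 59.9%. Of the 1286 genes changed at least 2-fold, 1172 had a control mean nearer to Myocd-LSD1NF and 114 nearer to Myocd-LSD1. These counts are a description, with no test.

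The genes of the fusion partners came first. Myocd had 0.56, 0.19, 0.34 and 0.15 TPM in Myocd-LSD1, against 41.1, 49.6, 29.5 and 18.3 TPM in Myocd-LSD1NF (log2 fold change -4.69 ± 0.24, adjusted p = 3.56e-09). Every Myocd-LSD1 library was below 1 TPM and every Myocd-LSD1NF library above 18, and the control mean was 27.8 TPM. Kdm1a had 67.1, 64.8, 67.7 and 58.7 TPM in Myocd-LSD1, against 50.6, 61.9, 54.7 and 49.1 TPM in Myocd-LSD1NF, values that overlap, and did not pass the test (log2 fold change 0.26, 95% interval 0.05 to 0.46, adjusted p = 0.0531); it passed without Myocd-LSD1NF library 2, at 0.32 (adjusted p = 0.0236), and without Myocd-LSD1 library 4, at 0.30 (adjusted p = 0.0396). The sources used here do not say if fusion reads went to Myocd or Kdm1a in the counting, so the levels do not check the constructs. Of 29 tested enzymes of H3K4 methylation, LSD1 partners and DNA methylation enzymes, 1 was called, Kdm1b, the paralogue of Kdm1a. Kdm1b had 8.67, 7.10, 7.84 and 7.12 TPM in Myocd-LSD1, against 5.28, 4.57, 4.08 and 5.82 TPM in Myocd-LSD1NF (log2 fold change 0.55 ± 0.13, adjusted p = 0.00524), with no overlap. The list's median log2 fold change was 0.15.

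The contractile apparatus was lower in Myocd-LSD1. List counts, here and below, are to be read beside the shares of all tested genes, 19.1% higher and 12.7% lower. Of 17 tested actins and thin filament proteins, 13 fell and 1 rose, with a median log2 fold change of -1.23, and of 15 myosin chains and enzymes of light chain phosphorylation 10 fell, with a median of -0.87. Summed over the thin filament list, the libraries held 7441 to 11312 TPM in Myocd-LSD1 and 17767 to 32763 TPM in Myocd-LSD1NF, against 30201 to 37197 TPM in control.

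Acta2, smooth muscle actin, had 1634, 1585, 2894 and 2196 TPM in Myocd-LSD1, against 10748, 10729, 11982 and 3979 TPM in Myocd-LSD1NF (log2 fold change -2.10 ± 0.31, adjusted p = 0.000123). Library 4 of Myocd-LSD1NF was the lowest of its line and still above all 4 Myocd-LSD1 libraries. Tagln, transgelin, an actin-binding protein, had 1554, 1629, 2817 and 2178 TPM in Myocd-LSD1, against 5369, 6125, 7007 and 4289 TPM in Myocd-LSD1NF (log2 fold change -1.5 ± 0.20, adjusted p = 5.48e-05), again with no overlap. Tpm2, beta-tropomyosin of the thin filament, had 744, 746, 818 and 763 TPM in Myocd-LSD1, against 2865, 2413, 3668 and 1758 TPM in Myocd-LSD1NF (log2 fold change -1.75 ± 0.19, adjusted p = 9.28e-06). The 4 Myocd-LSD1 values of Tpm2 lay close together. Lmod1, leiomodin, which nucleates actin filaments in smooth muscle, had 6.31, 9.92, 11.3 and 16.7 TPM in Myocd-LSD1, against 92.3, 86.9, 103 and 38.6 TPM in Myocd-LSD1NF (log2 fold change -2.73 ± 0.32, adjusted p = 1.75e-05), with no overlap.

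Cnn1, calponin, an inhibitor of actomyosin, varied widely inside the Myocd-LSD1 line. It had 63.2, 7, 128 and 6.24 TPM in Myocd-LSD1, against 566, 726, 927 and 812 TPM in Myocd-LSD1NF (log2 fold change -4.83 ± 0.69, adjusted p = 0.000101). Libraries 2 and 4 were far below libraries 1 and 3, and all were below every Myocd-LSD1NF library. Without libraries 2 and 4 the log2 fold change was -3.04 (adjusted p = 4.73e-06). In the limma fit of the 8 libraries of the lines alone, the adjusted p of Cnn1 was 0.00365. Des, desmin, the muscle intermediate filament protein, was the exception of the list, with 7.08, 6.64, 3.71 and 4.61 TPM in Myocd-LSD1, against 1, 0.43, 0.42 and 0.18 TPM in Myocd-LSD1NF (log2 fold change 2.10 ± 0.23, adjusted p = 1.04e-05), low in both lines and higher in every Myocd-LSD1 library.

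Among the myosin genes, Myl9, the regulatory light chain whose phosphorylation starts contraction, had 64.9, 57.1, 119 and 49.5 TPM in Myocd-LSD1, against 462, 445, 671 and 129 TPM in Myocd-LSD1NF (log2 fold change -2.40 ± 0.40, adjusted p = 0.000354). Its Myocd-LSD1NF values were themselves far below control, which averaged 2613 TPM. Ppp1r14a (CPI-17), an inhibitor of myosin phosphatase, had 3.24, 2.58, 3.65 and 4.40 TPM in Myocd-LSD1, against 28.1, 35.6, 57.1 and 12.7 TPM in Myocd-LSD1NF (log2 fold change -2.78 ± 0.41, adjusted p = 0.000128). Mylk, myosin light chain kinase, had 15.2, 1.91, 10.8 and 2.98 TPM in Myocd-LSD1, against 34.3, 35.3, 27 and 14 TPM in Myocd-LSD1NF (log2 fold change -1.98 ± 0.46, adjusted p = 0.00469), and only Myocd-LSD1 library 1 and Myocd-LSD1NF library 4 overlapped; without Myocd-LSD1 libraries 2 and 4 its log2 fold change was -0.97 (adjusted p = 0.0625). Myh11, smooth muscle myosin heavy chain, had 11.6, 2.92, 4.85 and 4.93 TPM in Myocd-LSD1, against 19.9, 13, 13.5 and 3.55 TPM in Myocd-LSD1NF, values that overlap, and did not pass the test (log2 fold change -0.87, adjusted p = 0.118). Myh11 did pass without Myocd-LSD1NF library 4, at -1.33 (adjusted p = 0.00511), and without Myocd-LSD1 library 1, at -1.20 (adjusted p = 0.0381). The myosin heavy chain thus passed or did not pass by which library was left out. Rnd3, a small GTPase that opposes actin stress fibres and whose promoter window held 1 full CArG box, had 219, 254, 264 and 360.4 TPM in Myocd-LSD1, against 582, 533, 544 and 446 TPM in Myocd-LSD1NF (log2 fold change -0.95 ± 0.14, adjusted p = 0.000135).

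**Figure D2:**
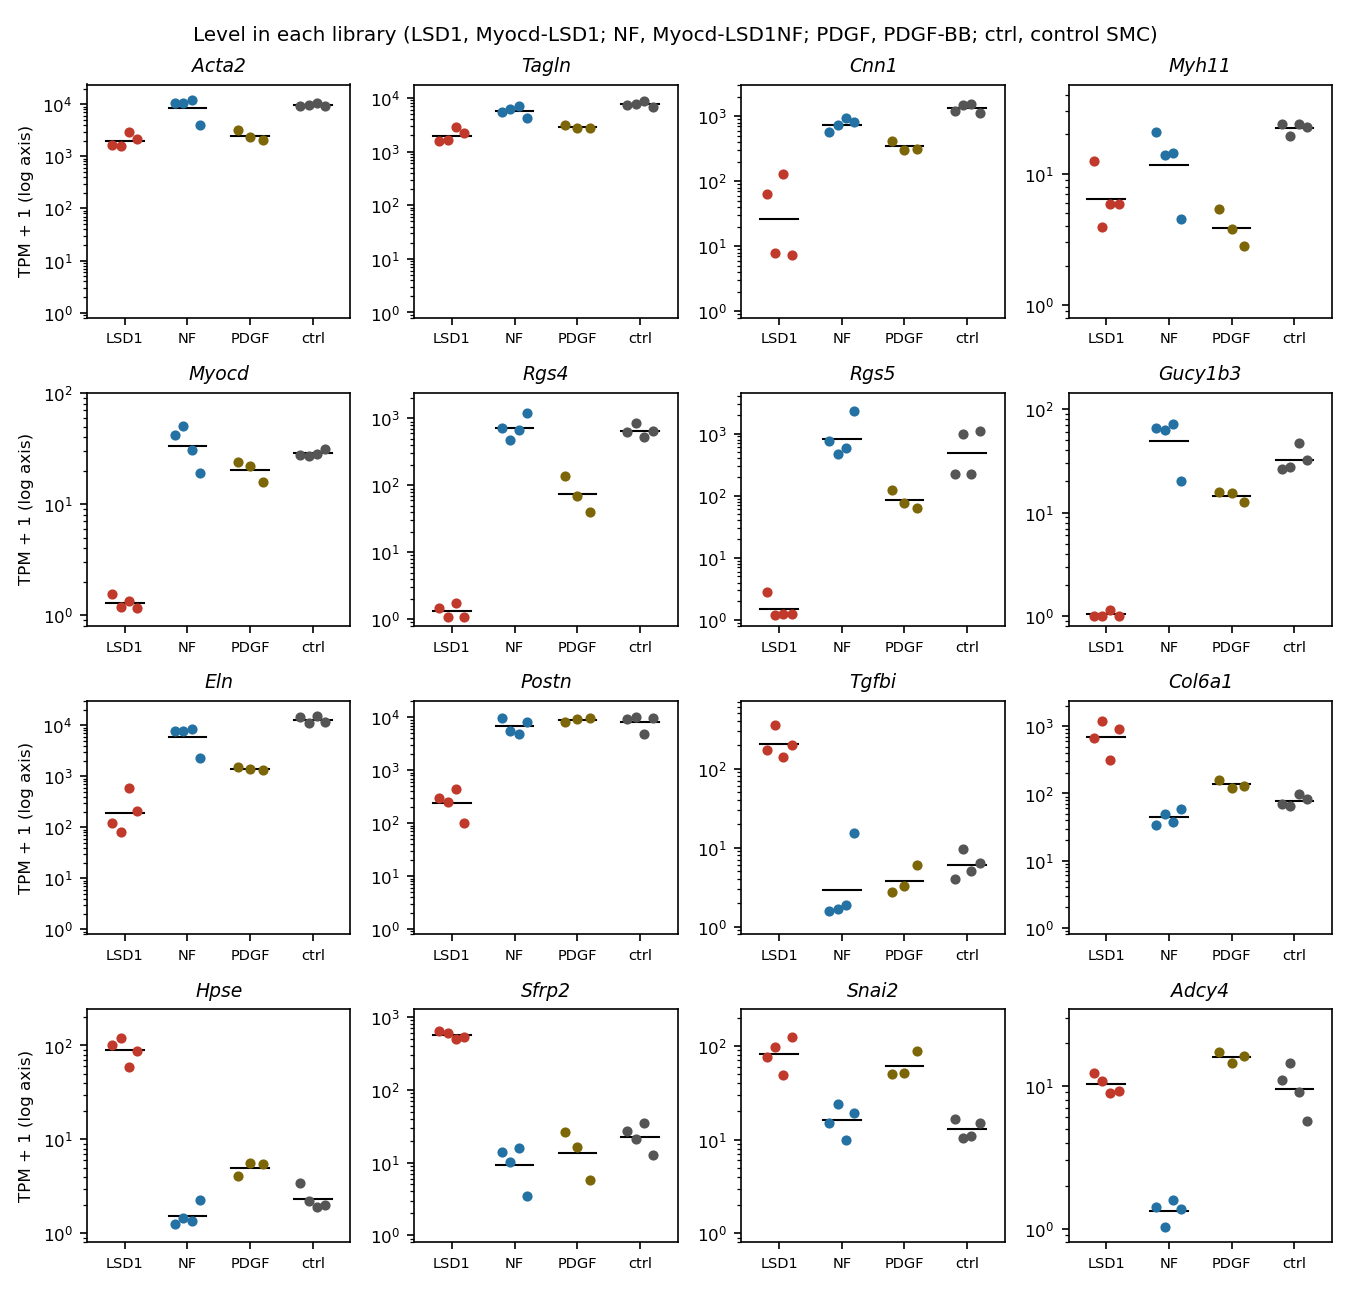
TPM + 1 on a log axis in each library (points) of Myocd-LSD1, Myocd-LSD1NF, PDGF-BB and control SMC, with the mean of the log values as a line, for 16 genes. Myocd lies below 1 TPM in all 4 Myocd-LSD1 libraries, and Cnn1 spans 6.24 to 128 TPM within that line.

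Signalling genes of vessel tone held the largest falls. Of 23 tested genes for G protein regulators, nitric oxide and cyclic GMP signalling, ion channels and vasoactive receptors, 15 fell and 2 rose, and the median log2 fold change was -0.89. Rgs4 and Rgs5 encode regulators that shorten G protein signals, and in the RefSeq gene order they are neighbours, with 0 tested genes between them. Rgs4 had 0.50, 0.09, 0.77 and 0.07 TPM in Myocd-LSD1, against 716, 473, 669 and 1208 TPM in Myocd-LSD1NF (log2 fold change -9.09 ± 0.33, adjusted p = 1.52e-10). Rgs5 had 1.79, 0.21, 0.24 and 0.24 TPM in Myocd-LSD1, against 749, 468, 589 and 2269 TPM in Myocd-LSD1NF (log2 fold change -9.10 ± 0.57, adjusted p = 3.18e-08). Both were near the floor in every Myocd-LSD1 library and above 100 TPM in every Myocd-LSD1NF library, where library 4 was highest for both. In SMC treated with PDGF-BB the means were 82.5 TPM for Rgs4 and 86.8 TPM for Rgs5, against 659 and 639.6 TPM in control.

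Nitric oxide from the endothelium relaxes SMC through cyclic GMP, and several called members of this list act there. Gucy1b3, the beta subunit of soluble guanylate cyclase, the nitric oxide receptor, had 0, 0, 0.15 and 0 TPM in Myocd-LSD1, against 65.1, 61.7, 71 and 19.3 TPM in Myocd-LSD1NF (log2 fold change -5.58 ± 0.32, adjusted p = 9.97e-09). It was listed at 0 in 3 of 4 Myocd-LSD1 libraries, and library 4 of Myocd-LSD1NF was below the other 3 of its line. Pde5a, the phosphodiesterase that breaks down cyclic GMP, had 1.32, 0.36, 0.94 and 0.97 TPM in Myocd-LSD1, against 34, 17.6, 22.9 and 7.88 TPM in Myocd-LSD1NF (log2 fold change -3.37 ± 0.32, adjusted p = 2.02e-06). Mrvi1 (IRAG), a target of cyclic GMP-dependent kinase at the calcium store, had 3.12, 6.54, 2.53 and 18.1 TPM in Myocd-LSD1, against 123, 96.1, 90.1 and 52.8 TPM in Myocd-LSD1NF (log2 fold change -3.70 ± 0.41, adjusted p = 9.28e-06). Npr3, the clearance receptor of natriuretic peptides, had 88.6, 21.3, 75.2 and 41.2 TPM in Myocd-LSD1, against 364, 426, 281 and 227 TPM in Myocd-LSD1NF (log2 fold change -2.65 ± 0.39, adjusted p = 0.00012). None of these 4 genes overlapped between the lines. Pde5a, Mrvi1 and Npr3, and Cacna1c, were chosen after their values were seen.

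Other called members handle calcium. Casq2, calsequestrin, the calcium buffer of the sarcoplasmic reticulum, had 1.40, 1.35, 2.46 and 2.75 TPM in Myocd-LSD1, against 51.1, 58.4, 39.6 and 52.4 TPM in Myocd-LSD1NF (log2 fold change -4.12 ± 0.25, adjusted p = 2.27e-08). Cacna1c, the pore of the L-type calcium channel, had 2.71, 2.80, 2.97 and 2.40 TPM in Myocd-LSD1, against 26, 18.5, 17.3 and 14.9 TPM in Myocd-LSD1NF (log2 fold change -2.41 ± 0.15, adjusted p = 2.63e-08). Both genes lay well apart between the lines. Gja1, connexin 43 of gap junctions, ran the other way, with 789, 1268, 512 and 1151 TPM in Myocd-LSD1, against 512, 546, 438 and 229 TPM in Myocd-LSD1NF (log2 fold change 1.10 ± 0.30, adjusted p = 0.0122). Its lines overlapped, since library 3 of Myocd-LSD1 was at the level of Myocd-LSD1NF, and without Myocd-LSD1 libraries 2 and 4 its log2 fold change was 0.63 (adjusted p = 0.168).

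Of 34 tested transcription factors of SMC identity and phenotype, 12 fell and 5 rose, with a median log2 fold change of -0.16. Srf had 57.8, 61, 75 and 58.1 TPM in Myocd-LSD1, against 87.3, 115, 98.7 and 81.6 TPM in Myocd-LSD1NF (log2 fold change -0.59 ± 0.13, adjusted p = 0.00304), a small fall with no overlap. Notch3, a receptor that keeps arterial SMC differentiated, had 7.20, 5.53, 3.01 and 6.86 TPM in Myocd-LSD1, against 56.7, 57.2, 34.6 and 14.5 TPM in Myocd-LSD1NF (log2 fold change -2.53 ± 0.40, adjusted p = 0.000253). Hey2, a target of Notch signalling that represses transcription, had 6.47, 19.1, 29 and 33 TPM in Myocd-LSD1, against 65.9, 96.1, 101 and 147 TPM in Myocd-LSD1NF (log2 fold change -2.33 ± 0.41, adjusted p = 0.000552). Both were lower in every Myocd-LSD1 library. Mef2c, a muscle transcription factor, had 0.04, 0, 0.21 and 0 TPM in Myocd-LSD1, against 3.26, 2.88, 3.98 and 0.73 TPM in Myocd-LSD1NF (log2 fold change -1.71 ± 0.28, adjusted p = 0.000373), at or near 0 in Myocd-LSD1.

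The factors that rose included Snai2 (Slug), a repressor known from epithelial-mesenchymal transition, with 75.3, 96.3, 48.1 and 122 TPM in Myocd-LSD1, against 14.1, 23.2, 9.01 and 18 TPM in Myocd-LSD1NF (log2 fold change 2.33 ± 0.31, adjusted p = 4.72e-05). Its PDGF-BB mean was 62.2 TPM, against 12.2 TPM in control. Runx2, the master factor of bone cells that is also known from calcifying SMC, had 6.15, 7.40, 3.76 and 6.05 TPM in Myocd-LSD1, against 1.02, 0.97, 1.01 and 1.30 TPM in Myocd-LSD1NF (log2 fold change 1.69 ± 0.20, adjusted p = 1.72e-05), with no overlap. Sox9, a cartilage factor, had 50.6, 70.3, 41.8 and 78.2 TPM in Myocd-LSD1, against 35.6, 29.3, 28.6 and 45 TPM in Myocd-LSD1NF (log2 fold change 0.76 ± 0.19, adjusted p = 0.00677), and without Myocd-LSD1 libraries 2 and 4 its log2 fold change was 0.42 (adjusted p = 0.112). Snai2 and Runx2 did not overlap between the lines, while Sox9 did. Klf5, a factor of proliferating SMC, had 10.1, 5.75, 17.2 and 6.54 TPM in Myocd-LSD1, against 2.77, 3.35, 2.34 and 7.11 TPM in Myocd-LSD1NF (log2 fold change 1.13 ± 0.31, adjusted p = 0.012), with an overlap of Myocd-LSD1 libraries 2 and 4 and Myocd-LSD1NF library 4. Klf4, which can repress contractile genes, had 318, 597, 381 and 665 TPM in Myocd-LSD1, against 113, 230.1, 285 and 227 TPM in Myocd-LSD1NF. Its values did not overlap between the lines, but it did not pass the test (log2 fold change 1.20, adjusted p = 0.103).

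HOX genes keep the record of position along the body axis. Of 18 tested, 4 rose and 7 fell, against 19.1% higher and 12.7% lower of all tested genes, and the median log2 fold change was -0.37. Hoxc6 had 2.44, 1.42, 1.73 and 2.34 TPM in Myocd-LSD1, against 12.5, 10.9, 10.3 and 16.8 TPM in Myocd-LSD1NF (log2 fold change -2.18 ± 0.17, adjusted p = 2.74e-07), with every Myocd-LSD1 library below every Myocd-LSD1NF library. Hoxd13 had 32.6, 12.6, 58.1 and 11 TPM in Myocd-LSD1, against 93.1, 91.1, 97.7 and 117 TPM in Myocd-LSD1NF (log2 fold change -2.07 ± 0.37, adjusted p = 0.000647), and its log2 fold change was -1.17 (adjusted p = 0.00162) without Myocd-LSD1 libraries 2 and 4. Among the rises, Hoxa13 had 3.14, 5.73, 2.07 and 7.05 TPM in Myocd-LSD1, against 0.40, 0.63, 0.41 and 0.30 TPM in Myocd-LSD1NF (log2 fold change 1.84 ± 0.25, adjusted p = 6.39e-05) and was below 1 TPM in every Myocd-LSD1NF library. Hoxb7 had 15.8, 16, 12.9 and 13.1 TPM in Myocd-LSD1, against 6.37, 4.89, 6.82 and 4.98 TPM in Myocd-LSD1NF (log2 fold change 1.19 ± 0.14, adjusted p = 1.43e-05).

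The extracellular matrix differed in composition. Of 18 tested genes of elastin and elastic fibre assembly, 7 fell and 2 rose, with a median log2 fold change of -0.83 that was -0.23 without Myocd-LSD1 libraries 2 and 4 and -0.41 without Myocd-LSD1NF library 4. Eln, elastin, the recoil protein of the aortic wall, had 122, 79.2, 599.8 and 209 TPM in Myocd-LSD1, against 7791, 7798, 8543 and 2292 TPM in Myocd-LSD1NF (log2 fold change -4.97 ± 0.51, adjusted p = 4.55e-06). Library 3 was highest in Myocd-LSD1 and library 4 lowest in Myocd-LSD1NF, and a wide gap remained between them. Fbln5, fibulin-5, which ties elastin to microfibrils, had 695, 310.2, 666 and 385 TPM in Myocd-LSD1, against 2083, 2029, 1731 and 1503 TPM in Myocd-LSD1NF (log2 fold change -1.91 ± 0.25, adjusted p = 4.53e-05). Fbn1, fibrillin-1 of the microfibril, had 114, 123, 72.3 and 85.8 TPM in Myocd-LSD1, against 357, 339, 189 and 236 TPM in Myocd-LSD1NF (log2 fold change -1.48 ± 0.24, adjusted p = 0.000299). Lox, which cross-links elastin and collagen, had 448, 524, 615 and 555 TPM in Myocd-LSD1, against 1214, 1257, 889 and 744 TPM in Myocd-LSD1NF (log2 fold change -0.91 ± 0.17, adjusted p = 0.000948), again with no overlap.

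The exceptions among elastic fibre genes were Fbln1 and Efemp2. Fbln1, fibulin-1, had 27.9, 7.66, 13.6 and 4.52 TPM in Myocd-LSD1, against 0.89, 1.26, 0.70 and 0.30 TPM in Myocd-LSD1NF (log2 fold change 2.76 ± 0.45, adjusted p = 0.000336). Here the control mean, 17.2 TPM, was nearer to Myocd-LSD1. Efemp2, fibulin-4, which guides lysyl oxidase to elastin, had 1116, 992, 978 and 979 TPM in Myocd-LSD1, against 637, 718, 583 and 539.8 TPM in Myocd-LSD1NF (log2 fold change 0.72 ± 0.10, adjusted p = 6.64e-05), with all 4 Myocd-LSD1 libraries above Myocd-LSD1NF.

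Of 21 tested collagen chains, 7 rose and 7 fell, and the median log2 fold change was -0.04. The rises were led by the chains of collagen VI, a beaded-filament collagen around cells. Col6a1 had 662, 1194, 313 and 919 TPM in Myocd-LSD1, against 33.4, 49.1, 36.2 and 56.9 TPM in Myocd-LSD1NF (log2 fold change 3.98 ± 0.31, adjusted p = 3.25e-07). Col6a2, its neighbour in the RefSeq gene order, had 618, 1181, 287 and 884 TPM in Myocd-LSD1, against 59.3, 62.1, 58.6 and 129 TPM in Myocd-LSD1NF (log2 fold change 3.16 ± 0.34, adjusted p = 8.02e-06). Col6a3 had 9.19, 28.7, 1.27 and 16.4 TPM in Myocd-LSD1, against 0.03, 0.04, 0.02 and 0.18 TPM in Myocd-LSD1NF (log2 fold change 3.29 ± 0.52, adjusted p = 0.000252), and its log2 fold change was 2.17 (adjusted p = 0.00192) without Myocd-LSD1 libraries 2 and 4. In all 3 chains Myocd-LSD1 libraries 2 and 4 were highest and library 3 lowest, and no library overlapped with Myocd-LSD1NF.

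Fibrillar collagen I followed the same order of libraries. Col1a1 had 10953, 25197, 7068 and 23037 TPM in Myocd-LSD1, against 4211, 5533, 3180.0 and 6907 TPM in Myocd-LSD1NF (log2 fold change 1.61 ± 0.41, adjusted p = 0.00759). Libraries 2 and 4 stood above libraries 1 and 3, and without them the log2 fold change was 0.89 (adjusted p = 0.123). Col3a1, collagen III, had 2742, 8041, 1422 and 5074 TPM in Myocd-LSD1, against 2385, 3906, 2444 and 3037 TPM in Myocd-LSD1NF, which overlapped and did not pass (log2 fold change 0.30, adjusted p = 0.6). Of the collagen IV chains of basement membranes, Col4a1 and Col4a5 were lower and were chosen after their values were seen. Col4a1 had 518, 390.1, 531 and 426 TPM in Myocd-LSD1, against 819.8, 1046, 689.8 and 766 TPM in Myocd-LSD1NF (log2 fold change -0.83 ± 0.16, adjusted p = 0.00106). Col4a5 had 62.8, 76.7, 54.4 and 68.6 TPM in Myocd-LSD1, against 139, 194, 134 and 184 TPM in Myocd-LSD1NF (log2 fold change -1.29 ± 0.16, adjusted p = 2.43e-05), also with no overlap.

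Of 24 tested small proteoglycans and matricellular proteins, 2 rose and 9 fell, with a median log2 fold change of -0.52. Postn, periostin, a matrix protein of remodelling tissue, had 302, 252, 447 and 100.3 TPM in Myocd-LSD1, against 9840.4, 5419, 4897 and 8268 TPM in Myocd-LSD1NF (log2 fold change -4.81 ± 0.38, adjusted p = 3.27e-07). All 4 Myocd-LSD1 libraries were far below the other line, and the means were 9040.0 TPM in PDGF-BB cells and 8567 TPM in control. Epyc, epiphycan, a small proteoglycan known from cartilage, had 0.58, 0.55, 0.14 and 0.14 TPM in Myocd-LSD1, against 29.3, 44.9, 71.2 and 281 TPM in Myocd-LSD1NF (log2 fold change -5.77 ± 0.60, adjusted p = 5.29e-06). Nov (CCN3), a matricellular regulator of SMC growth, had 412, 461, 417 and 669 TPM in Myocd-LSD1, against 2579, 1129, 2368 and 1653 TPM in Myocd-LSD1NF (log2 fold change -1.93 ± 0.31, adjusted p = 0.000301).

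The 2 that rose were Tgfbi and Prelp. Tgfbi, a secreted protein induced by TGF-beta, had 169.7, 357, 140.0 and 197 TPM in Myocd-LSD1, against 0.56, 0.66, 0.85 and 14.4 TPM in Myocd-LSD1NF (log2 fold change 6.12 ± 0.60, adjusted p = 2.91e-06). Library 4 of Myocd-LSD1NF was above the other 3 of its line. Prelp, a leucine-rich proteoglycan that binds collagen to basement membrane, had 58.8, 22.4, 39.5 and 29.3 TPM in Myocd-LSD1, against 1.85, 5.06, 2.90 and 1 TPM in Myocd-LSD1NF (log2 fold change 3.41 ± 0.42, adjusted p = 3.15e-05), with no overlap.

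Of 11 tested basement membrane genes, 1 rose and 3 fell, with a median log2 fold change of -0.30. Nid1, nidogen, which links laminin to collagen IV, had 0.14, 0.05, 0.24 and 0 TPM in Myocd-LSD1, against 46.7, 44.5, 34.4 and 0.65 TPM in Myocd-LSD1NF (log2 fold change -4.10 ± 0.76, adjusted p = 0.000866). Library 4 of Myocd-LSD1NF was nearly as low as Myocd-LSD1. Lamb3, a laminin chain of epithelia, had 12.9, 23.3, 3.17 and 9.02 TPM in Myocd-LSD1, against 0, 0.05, 0 and 2.01 TPM in Myocd-LSD1NF (log2 fold change 3.03 ± 0.44, adjusted p = 0.000108).

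Cell surface adhesion receptors changed in both directions, with 8 of 31 tested higher and 10 lower. The median log2 fold change was -0.31, and 0.06 without Myocd-LSD1 libraries 2 and 4. Pcdh7, a protocadherin, had 0.10, 0.02, 0.78 and 0 TPM in Myocd-LSD1, against 109.7, 112, 105 and 51 TPM in Myocd-LSD1NF (log2 fold change -6.26 ± 0.23, adjusted p = 1.52e-10). Itga8, an integrin chain of contractile SMC, had 3.54, 1.69, 9.08 and 2.82 TPM in Myocd-LSD1, against 201, 102, 135 and 149.8 TPM in Myocd-LSD1NF (log2 fold change -4.94 ± 0.35, adjusted p = 1.06e-07). Cdh11, a mesenchymal cadherin, had 0.88, 0.03, 1.56 and 0 TPM in Myocd-LSD1, against 46, 46.4, 41 and 4.63 TPM in Myocd-LSD1NF (log2 fold change -4.17 ± 0.54, adjusted p = 4.23e-05). All 3 were separate between lines, with Myocd-LSD1NF library 4 lowest in its line for Pcdh7 and Cdh11. Itga11, a collagen-binding integrin chain, was higher, with 312, 459, 193 and 609.8 TPM in Myocd-LSD1, against 35, 50.6, 34.8 and 163 TPM in Myocd-LSD1NF (log2 fold change 2.65 ± 0.45, adjusted p = 0.000461).

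Of 23 tested matrix proteases, heparanase and their inhibitors, 9 rose and 3 fell, with a median log2 fold change of 0.54 that was 0.19 without Myocd-LSD1NF library 4. Hpse, heparanase, which cuts heparan sulfate chains, had 99.9, 121, 58.4 and 85.6 TPM in Myocd-LSD1, against 0.27, 0.45, 0.34 and 1.28 TPM in Myocd-LSD1NF (log2 fold change 5.86 ± 0.25, adjusted p = 9.38e-10). Serpine2, protease nexin-1, an inhibitor of thrombin and urokinase, had 250.1, 306, 158 and 181 TPM in Myocd-LSD1, against 10.5, 5.12, 12.3 and 7.56 TPM in Myocd-LSD1NF (log2 fold change 4.52 ± 0.25, adjusted p = 9.04e-09). Serpinf1 (PEDF), a secreted anti-angiogenic serpin, had 555, 1081, 433 and 794 TPM in Myocd-LSD1, against 66.4, 54.8, 51.7 and 108 TPM in Myocd-LSD1NF (log2 fold change 3.31 ± 0.27, adjusted p = 5.98e-07). Each of the 3 was higher in all 4 Myocd-LSD1 libraries. Timp1, an inhibitor of matrix metalloproteinases, had 1525, 2166, 1300.5 and 962 TPM in Myocd-LSD1, against 274, 422, 396 and 671 TPM in Myocd-LSD1NF (log2 fold change 1.77 ± 0.26, adjusted p = 0.000126). Timp1 too was higher in every Myocd-LSD1 library. Adamts12, a metalloprotease, was lower, with 52.8, 72.8, 48 and 80.4 TPM in Myocd-LSD1, against 328, 258, 210.4 and 297 TPM in Myocd-LSD1NF (log2 fold change -2.10 ± 0.19, adjusted p = 1.15e-06).

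By absolute level, the largest rises among called genes with no overlap included Col1a1, Ccdc80, Timp1, Sod3, Col6a1, Pcolce and Ctsb. Sod3, extracellular superoxide dismutase, had 1594, 1956, 1247 and 2091 TPM in Myocd-LSD1, against 983, 743, 728 and 955 TPM in Myocd-LSD1NF (log2 fold change 1.0 ± 0.19, adjusted p = 0.00124). Ctsb, the lysosomal protease cathepsin B, had 1362, 1713, 1161 and 1209 TPM in Myocd-LSD1, against 714, 681, 607 and 723 TPM in Myocd-LSD1NF (log2 fold change 0.98 ± 0.13, adjusted p = 4.56e-05). Neither gene overlapped between the lines. Pcolce, which enhances procollagen processing, had 1403, 2036, 1215 and 2057 TPM in Myocd-LSD1, against 939.9, 1092, 924 and 929.7 TPM in Myocd-LSD1NF (log2 fold change 0.75 ± 0.16, adjusted p = 0.00206), and its log2 fold change was 0.43 (adjusted p = 0.0301) without Myocd-LSD1 libraries 2 and 4. For Ccdc80, a matrix protein, the log2 fold change was 0.89 (adjusted p = 0.0207), and 0.54 (adjusted p = 0.207) without those libraries; the call was also lost without Myocd-LSD1 library 2 or 4 (adjusted p = 0.0522 and 0.0659) and without Myocd-LSD1NF library 1 or 3 (0.0617 and 0.056).

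**Figure D3:**
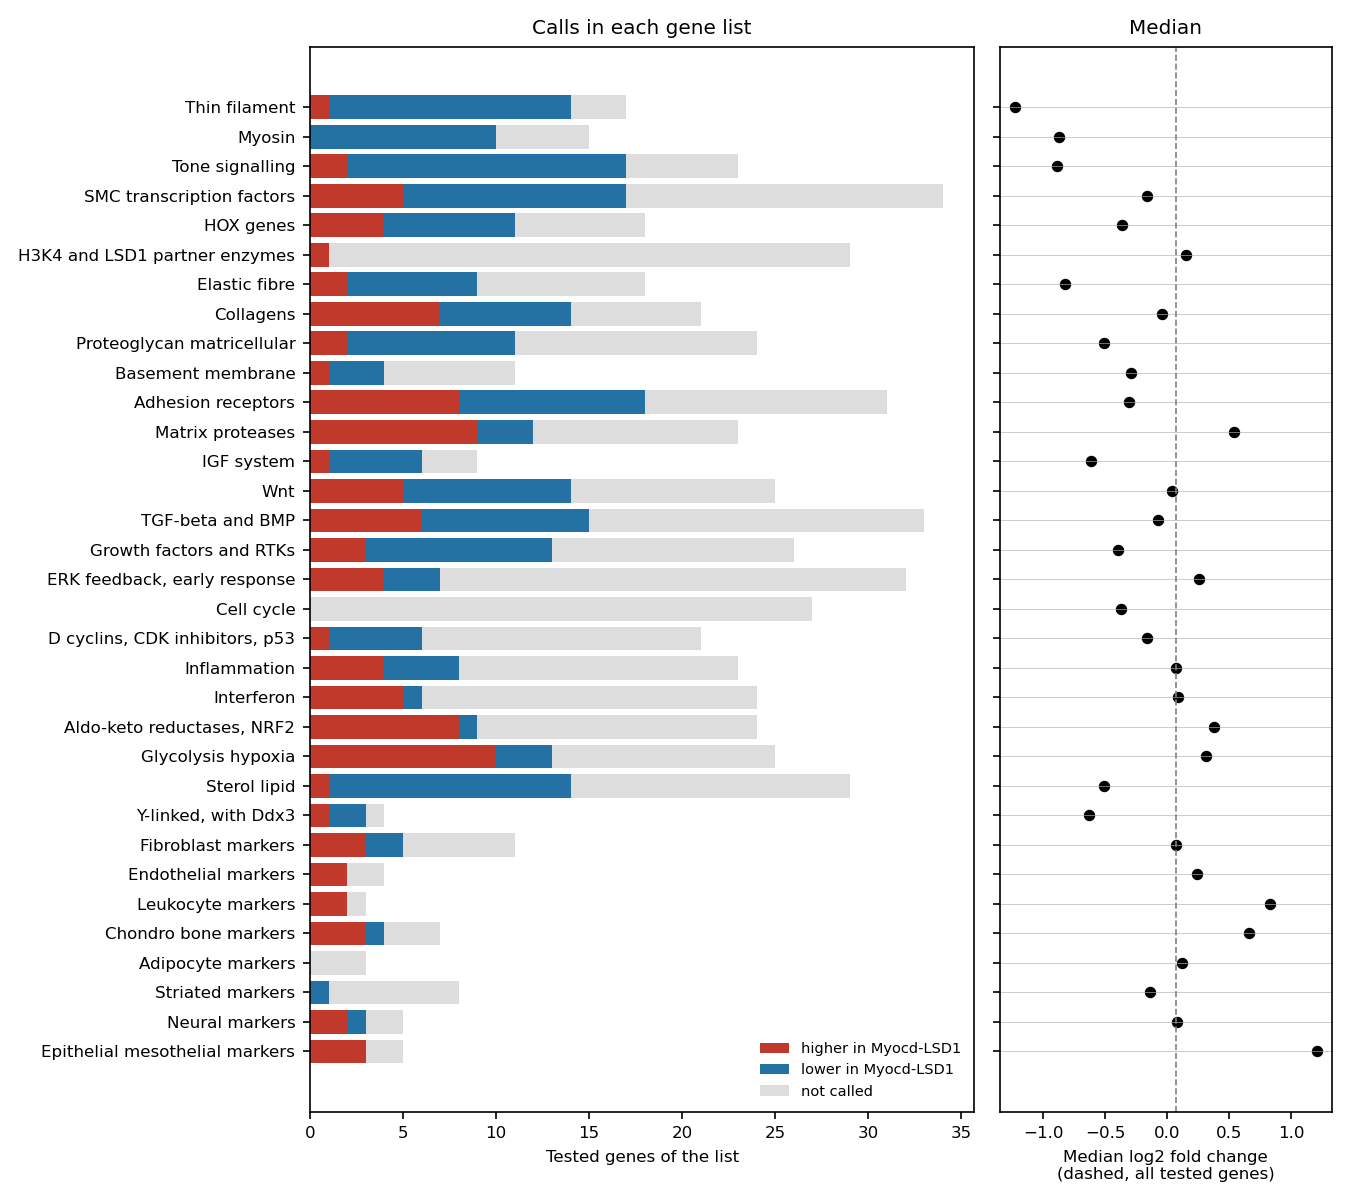
Number of tested genes in each of the 33 gene lists called higher in Myocd-LSD1 (red), called lower (blue) or not called (grey), beside the list's median log2 fold change (points), with the median of all tested genes, 0.07, as a dashed line. Of all tested genes 19.1% were higher and 12.7% lower; the thin filament, myosin and tone signalling lists had 13 of 17, 10 of 15 and 15 of 23 members lower.

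Growth factor systems were read by ligand, receptor and feedback gene. Of 9 tested genes of the insulin-like growth factor system, 1 rose and 5 fell, with a median log2 fold change of -0.61. The binding proteins that hold these factors outside the cell moved apart. Igfbp2 had 84.7, 2.80, 100.3 and 0.23 TPM in Myocd-LSD1, against 1121, 1217, 1116 and 594 TPM in Myocd-LSD1NF (log2 fold change -6.10 ± 1.05, adjusted p = 0.000464). Igfbp5 had 7.44, 142, 3.30 and 528 TPM in Myocd-LSD1, against 0.06, 0.23, 0 and 0.53 TPM in Myocd-LSD1NF (log2 fold change 5.10 ± 1.10, adjusted p = 0.00272). Libraries 2 and 4 of Myocd-LSD1 were lowest for Igfbp2 and highest for Igfbp5. Without them the log2 fold changes were -3.39 (adjusted p = 3.89e-06) for Igfbp2 and 2.34 (adjusted p = 0.00324) for Igfbp5. In the limma fit of the 8 libraries of the lines alone, adjusted p was 0.00882 for Igfbp2 and 0.0218 for Igfbp5. Igfbp7 had 420.2, 295, 527 and 306 TPM in Myocd-LSD1, against 951, 867, 878 and 692 TPM in Myocd-LSD1NF (log2 fold change -1.16 ± 0.17, adjusted p = 0.000139).

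Of 25 tested Wnt genes, 5 rose and 9 fell, with a median log2 fold change of 0.04. Shares over all tested genes were 19.1% higher and 12.7% lower. Sfrp2, a secreted Wnt modulator, had 634, 602, 492 and 535 TPM in Myocd-LSD1, against 12.9, 9.04, 14.8 and 2.50 TPM in Myocd-LSD1NF (log2 fold change 5.91 ± 0.48, adjusted p = 4.69e-07). Frzb, a secreted Wnt antagonist, had 108, 91.3, 77.3 and 125 TPM in Myocd-LSD1, against 333, 405, 382 and 178 TPM in Myocd-LSD1NF (log2 fold change -1.64 ± 0.32, adjusted p = 0.00121). These members of 1 family of secreted modulators differed in opposite directions. Nkd2, an inhibitor inside the cell, had 2.31, 1.98, 7.29 and 1.71 TPM in Myocd-LSD1, against 194, 45.8, 133 and 89.4 TPM in Myocd-LSD1NF (log2 fold change -4.73 ± 0.42, adjusted p = 1.23e-06), and Axin2, a feedback gene of beta-catenin signalling, had 0.30, 0.11, 0.54 and 0.29 TPM in Myocd-LSD1, against 2.06, 1.66, 1.80 and 1.27 TPM in Myocd-LSD1NF (log2 fold change -1.04 ± 0.16, adjusted p = 0.000195). Fzd8, a Wnt receptor, had 2.11, 1.35, 1.47 and 1.36 TPM in Myocd-LSD1, against 12.6, 5.53, 7.69 and 9.20 TPM in Myocd-LSD1NF (log2 fold change -1.88 ± 0.20, adjusted p = 6.19e-06). Ror2, a receptor of Wnt5a, was higher, with 57.7, 40.9, 46.4 and 54.7 TPM in Myocd-LSD1, against 3.83, 8.05, 4.90 and 40.0 TPM in Myocd-LSD1NF (log2 fold change 2.32 ± 0.47, adjusted p = 0.00168), where Myocd-LSD1NF library 4 came close to the Myocd-LSD1 range.

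Of 33 tested genes of TGF-beta and BMP signalling, 6 rose and 9 fell, against 19.1% higher and 12.7% lower of all tested genes. The list's median log2 fold change was -0.08, and 0.06 without Myocd-LSD1 libraries 2 and 4. The ligand Tgfb3 had 74.7, 91, 83.1 and 79.4 TPM in Myocd-LSD1, against 641, 449, 646 and 372 TPM in Myocd-LSD1NF (log2 fold change -2.63 ± 0.16, adjusted p = 2.19e-08). The BMP-family ligand Gdf6 had 5.57, 7.16, 5.02 and 11.8 TPM in Myocd-LSD1, against 53.2, 45.8, 51 and 16.6 TPM in Myocd-LSD1NF (log2 fold change -2.28 ± 0.37, adjusted p = 0.000307). Both were lower in every Myocd-LSD1 library. The signalling receptor Tgfbr2 was higher, with 224, 149, 132 and 159 TPM in Myocd-LSD1, against 83.7, 109, 56.3 and 85.6 TPM in Myocd-LSD1NF (log2 fold change 0.99 ± 0.19, adjusted p = 0.00125). The co-receptor Tgfbr3 (betaglycan) was higher too, with 38.1, 19.6, 18.8 and 22.1 TPM in Myocd-LSD1, against 0.92, 0.24, 0.38 and 2.73 TPM in Myocd-LSD1NF (log2 fold change 3.72 ± 0.30, adjusted p = 4.09e-07).

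Of 26 tested growth factors and receptor tyrosine kinases, 3 rose and 10 fell, with a median log2 fold change of -0.40. Among ligands, Pdgfb, the chain that forms PDGF-BB, had 0.75, 0.24, 2.98 and 0 TPM in Myocd-LSD1, against 29.3, 42.9, 33.7 and 6.17 TPM in Myocd-LSD1NF (log2 fold change -3.81 ± 0.49, adjusted p = 3.84e-05). Ptn, pleiotrophin, had 0.33, 0, 0.89 and 0 TPM in Myocd-LSD1, against 8.53, 15.1, 12.9 and 35.4 TPM in Myocd-LSD1NF (log2 fold change -3.73 ± 0.35, adjusted p = 2.05e-06). Vegfd, a lymphatic growth factor, had 1.14, 0.39, 0.73 and 0.26 TPM in Myocd-LSD1, against 14.6, 10.3, 13.5 and 44.2 TPM in Myocd-LSD1NF (log2 fold change -3.53 ± 0.34, adjusted p = 2.55e-06). All 3 ligands were lower in every Myocd-LSD1 library. Among receptors, Fgfr3 had 304, 87.7, 251 and 143 TPM in Myocd-LSD1, against 406, 661, 417 and 666 TPM in Myocd-LSD1NF (log2 fold change -1.57 ± 0.40, adjusted p = 0.0076), and its log2 fold change was -0.92 (adjusted p = 0.108) without Myocd-LSD1 libraries 2 and 4. Flt1, a VEGF receptor, was higher, with 20.4, 18.2, 19.9 and 12.4 TPM in Myocd-LSD1, against 1.42, 1.49, 1.74 and 1.81 TPM in Myocd-LSD1NF (log2 fold change 2.82 ± 0.41, adjusted p = 0.000126).

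Of 32 tested ERK feedback and early response genes, 4 rose and 3 fell, with a median log2 fold change of 0.25. Dusp6, a phosphatase of ERK, had 117, 270.3, 109 and 199 TPM in Myocd-LSD1, against 23.7, 39.1, 17.6 and 67.5 TPM in Myocd-LSD1NF (log2 fold change 2.28 ± 0.47, adjusted p = 0.0019). Etv5, a transcription factor induced by FGF signalling, had 35.5, 25.4, 34.3 and 29.2 TPM in Myocd-LSD1, against 9.66, 9.53, 7.24 and 21.9 TPM in Myocd-LSD1NF (log2 fold change 1.40 ± 0.26, adjusted p = 0.000846). Spry4, another feedback inhibitor of the pathway, was lower, with 11.9, 11.3, 15.6 and 13.8 TPM in Myocd-LSD1, against 28.3, 39, 28.3 and 31 TPM in Myocd-LSD1NF (log2 fold change -1.20 ± 0.17, adjusted p = 0.000105). Each of the 3 was separate between the lines.

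None of 27 tested DNA replication and mitosis genes was called by limma, and 2 had an unadjusted p under 0.05. Their summed level was 432 to 910.0 TPM in Myocd-LSD1 libraries and 453 to 1013 TPM in Myocd-LSD1NF libraries, against 1253 to 1502 TPM in PDGF-BB and 455 to 666 TPM in control libraries. The median log2 fold change was -0.37, and 0.25 without Myocd-LSD1 libraries 2 and 4. Of 21 D cyclins, CDK inhibitors and p53 targets, 1 rose and 5 fell. Cdkn1a (p21), an inhibitor of cyclin-dependent kinases, had 59.5, 53.1, 43.4 and 59.6 TPM in Myocd-LSD1, against 159, 221, 110.2 and 87.6 TPM in Myocd-LSD1NF (log2 fold change -1.33 ± 0.28, adjusted p = 0.00251). Plk2, a kinase among the p53 targets, had 22.6, 20.2, 26.3 and 20.7 TPM in Myocd-LSD1, against 65, 133, 55.9 and 76.7 TPM in Myocd-LSD1NF (log2 fold change -1.76 ± 0.33, adjusted p = 0.000953), with no overlap in either gene.

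Metabolic genes were compared in 3 lists. Of 24 aldo-keto reductases, dehydrogenases and NRF2 targets, 8 rose and 1 fell, with a median log2 fold change of 0.37. Akr1b10, an aldo-keto reductase, had 229, 214, 142 and 224 TPM in Myocd-LSD1, against 2.97, 4.24, 2.49 and 8.30 TPM in Myocd-LSD1NF (log2 fold change 5.29 ± 0.30, adjusted p = 9.75e-09). Akr1b7, of the same family, had 12.6, 40.9, 2.06 and 29.1 TPM in Myocd-LSD1 and was listed at 0 in all 4 Myocd-LSD1NF and all 4 control libraries (adjusted p = 8.3e-05). Akr1b genes are close copies, and how reads shared between them were counted is something the sources used here do not give. Me1, malic enzyme, was the gene that fell, with 36.4, 26.4, 36.5 and 32 TPM in Myocd-LSD1, against 119.6, 112, 101 and 116 TPM in Myocd-LSD1NF (log2 fold change -1.75 ± 0.12, adjusted p = 4.86e-08).

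Of 25 tested glycolysis and hypoxia genes, 10 rose and 3 fell, with a median log2 fold change of 0.31. The lactate transporter Slc16a3 had 42.4, 44.9, 52.8 and 35.8 TPM in Myocd-LSD1, against 2.24, 1.21, 4.31 and 18.3 TPM in Myocd-LSD1NF (log2 fold change 3.10 ± 0.46, adjusted p = 0.000138). The lactate transporter Slc16a1 had 120.3, 99.3, 73.8 and 124 TPM in Myocd-LSD1, against 39.6, 46.3, 28.9 and 40.9 TPM in Myocd-LSD1NF (log2 fold change 1.39 ± 0.17, adjusted p = 2.99e-05). Both transporters were higher in every Myocd-LSD1 library. Of 29 tested genes of cholesterol and fatty acid synthesis, 1 rose and 13 fell, with a median of -0.52. Scd, stearoyl-CoA desaturase, had 8.64, 4.87, 9.45 and 2.52 TPM in Myocd-LSD1, against 49.1, 44.8, 30.3 and 107 TPM in Myocd-LSD1NF (log2 fold change -2.96 ± 0.41, adjusted p = 7.08e-05). Sc5d, an enzyme late in cholesterol synthesis, had 25.8, 14.9, 22.6 and 15.9 TPM in Myocd-LSD1, against 49.1, 37, 40.3 and 66.6 TPM in Myocd-LSD1NF (log2 fold change -1.24 ± 0.21, adjusted p = 0.000431).

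Of 23 tested genes of chemokines, cytokines and NF-kappaB feedback, 4 rose and 4 fell, and of 24 interferon-stimulated genes 5 rose and 1 fell. Over all tested genes the shares were 19.1% higher and 12.7% lower. Il33, an alarmin cytokine, had 157, 51.6, 84.2 and 163 TPM in Myocd-LSD1, against 1.5, 14.8, 2.93 and 4.12 TPM in Myocd-LSD1NF (log2 fold change 4.29 ± 0.58, adjusted p = 6.63e-05). Il1rl1, the receptor of IL-33, was lower, with 0.10, 0, 0.36 and 0.03 TPM in Myocd-LSD1, against 6.15, 9.21, 5.57 and 1.43 TPM in Myocd-LSD1NF (log2 fold change -2.39 ± 0.37, adjusted p = 0.000197). The ligand and its receptor differed in opposite directions. Usp18, a feedback inhibitor of interferon signalling, had 13.7, 12.1, 14.1 and 7.77 TPM in Myocd-LSD1, against 0.95, 2.31, 0.83 and 0.67 TPM in Myocd-LSD1NF (log2 fold change 2.58 ± 0.38, adjusted p = 0.000122).

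**Figure D4:**
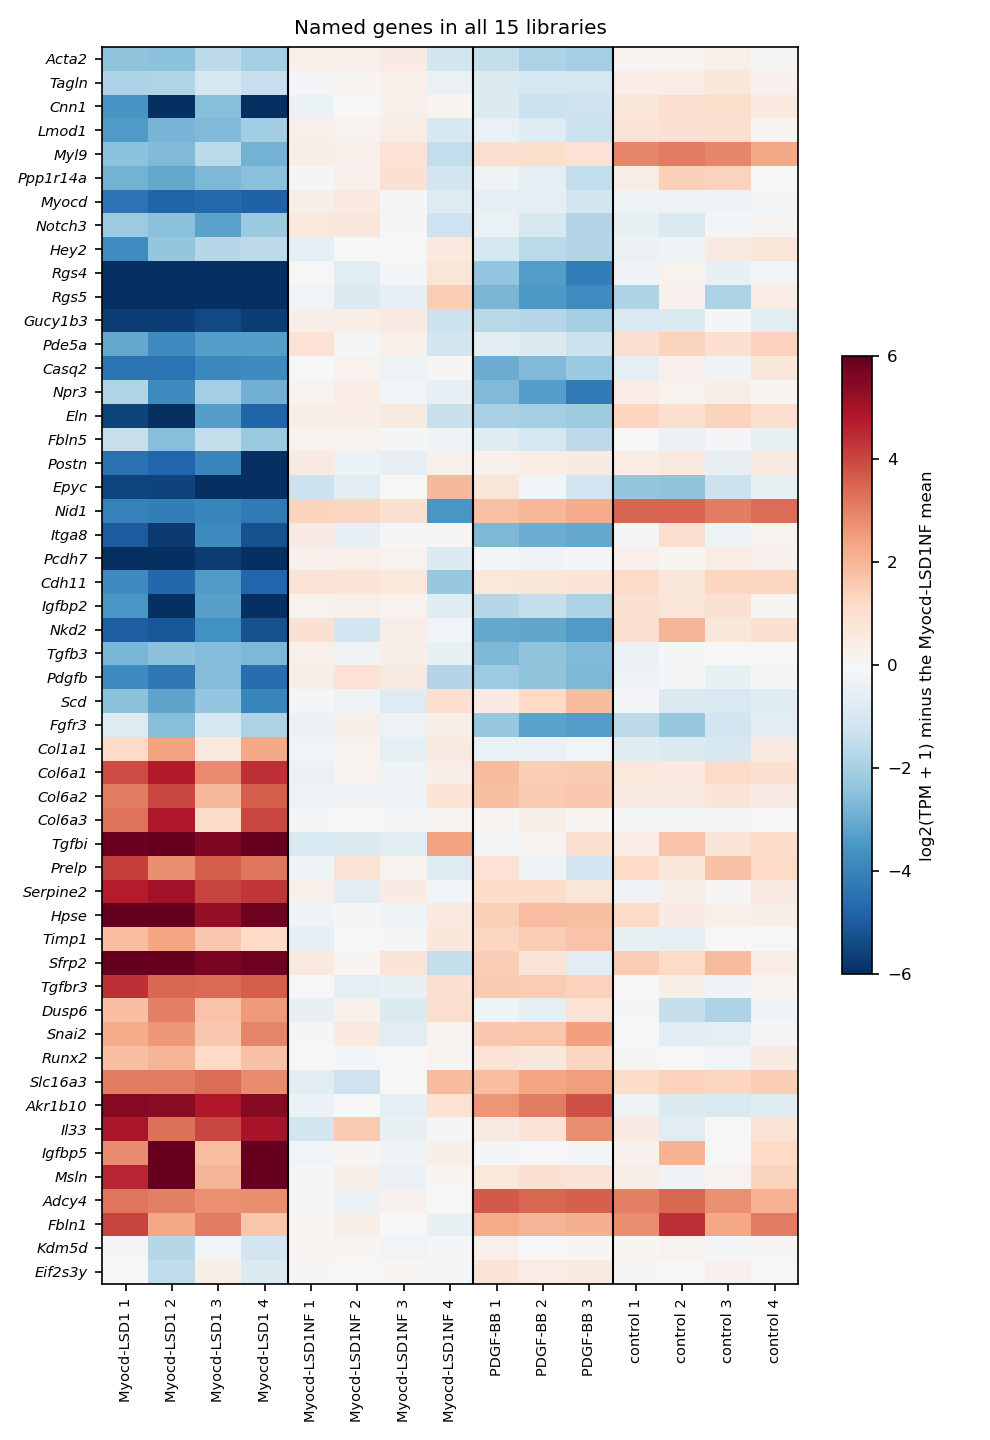
Log2(TPM + 1) minus the mean of the Myocd-LSD1NF libraries for 52 named genes (rows) in all 15 libraries (columns, Myocd-LSD1, Myocd-LSD1NF, PDGF-BB and control), with red above and blue below that mean and colours ending at 6 log2 units. Rgs4, Rgs5 and Gucy1b3 are dark blue in all 4 Myocd-LSD1 libraries; Cnn1, Igfbp5 and Msln differ between Myocd-LSD1 libraries 2 and 4 and libraries 1 and 3.

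Several of the largest rises belong to no list. Fam25a had 52.3, 117, 37.4 and 105 TPM in Myocd-LSD1, against 0, 0.26, 0 and 0.24 TPM in Myocd-LSD1NF (log2 fold change 5.99 ± 0.30, adjusted p = 2.78e-09). Tfec, a transcription factor of the MiT family, had 50.6, 42.6, 64.5 and 51.6 TPM in Myocd-LSD1, against 0, 0, 0 and 0.72 TPM in Myocd-LSD1NF (log2 fold change 5.53 ± 0.18, adjusted p = 9.13e-11) and was listed at 0 in all 4 control libraries. Both were close to 0 in Myocd-LSD1NF. Car3, carbonic anhydrase 3, had 308, 504, 205 and 96.1 TPM in Myocd-LSD1, against 2.53, 7.06, 2.23 and 3.33 TPM in Myocd-LSD1NF (log2 fold change 5.73 ± 0.53, adjusted p = 1.88e-06). Wfdc18 had 708, 155, 288 and 18.6 TPM in Myocd-LSD1, against 0.40, 0.47, 0 and 18 TPM in Myocd-LSD1NF (log2 fold change 5.99 ± 0.96, adjusted p = 0.000271), and its lowest Myocd-LSD1 value lay just above its highest Myocd-LSD1NF value. Among the falls, Abi3bp, a matrix protein that binds ABI3, had 0.61, 1.26, 0.41 and 3.89 TPM in Myocd-LSD1, against 141, 80.0, 110.4 and 38.7 TPM in Myocd-LSD1NF (log2 fold change -5.24 ± 0.49, adjusted p = 1.92e-06), with no overlap.

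For a smaller set, the control mean lay within the Myocd-LSD1 range. Adcy4, an adenylate cyclase, had 11.3, 9.86, 7.97 and 8.25 TPM in Myocd-LSD1, against 0.41, 0.03, 0.58 and 0.37 TPM in Myocd-LSD1NF (log2 fold change 2.95 ± 0.23, adjusted p = 3.37e-07), and 4.64 to 13.4 TPM in control. Xdh, xanthine dehydrogenase, had 54, 42.8, 26.5 and 39.8 TPM in Myocd-LSD1, against 7.86, 4.97, 5.09 and 2.80 TPM in Myocd-LSD1NF (log2 fold change 2.78 ± 0.44, adjusted p = 0.000268), and 12.6 to 65.8 TPM in control. Tm7sf3, a membrane protein, had 28.7, 38.1, 16.5 and 38.4 TPM in Myocd-LSD1, against 4.27, 3.19, 4.79 and 0.86 TPM in Myocd-LSD1NF (log2 fold change 2.93 ± 0.33, adjusted p = 1.27e-05), and 11.3 to 21.6 TPM in control. In all 3 genes the Myocd-LSD1NF libraries were the lowest of the 3 untreated groups. Among the falls, Klf2 had 14.3, 23.5, 23.6 and 47.8 TPM in Myocd-LSD1, against 53.3, 92, 87.4 and 54.1 TPM in Myocd-LSD1NF (log2 fold change -1.44 ± 0.35, adjusted p = 0.00575), and 25.5 to 62.1 TPM in control, a range that overlaps both lines. Frat2, a positive regulator of Wnt signalling, had 1.37, 0.76, 1.40 and 2.92 TPM in Myocd-LSD1, against 5.92, 7.93, 5.50 and 3.95 TPM in Myocd-LSD1NF (log2 fold change -1.42 ± 0.27, adjusted p = 0.00094), and 1.09 to 2.77 TPM in control.

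Of 4 tested genes of the Y-linked list, 1 rose and 2 fell, and Uba1y was the one that rose. Uba1y, Eif2s3y and Kdm5d are placed on the Y chromosome in RefSeq. The remaining tested gene of the list, which fell, is not described here. Uba1y had 237, 66.3, 274 and 107 TPM in Myocd-LSD1 and was listed at 0 in all 4 Myocd-LSD1NF libraries (adjusted p = 1.3e-09), and it reached at most 0.05 TPM in control. The sources used here do not say whether the lines share a source animal or how reads of Uba1y were assigned beside its X-linked relative, so this value does not tell which lines carry the gene. Eif2s3y had 143, 47.8, 179.9 and 79.4 TPM in Myocd-LSD1, against 136, 141, 155 and 133 TPM in Myocd-LSD1NF and did not pass the test (adjusted p = 0.2). Kdm5d, a demethylase of H3K4, had 21, 6.10, 19.3 and 9.41 TPM in Myocd-LSD1, against 24, 23.7, 19.8 and 20.6 TPM in Myocd-LSD1NF (log2 fold change -0.77 ± 0.27, adjusted p = 0.0415). In all 3 genes Myocd-LSD1 libraries 2 and 4 were below libraries 1 and 3. Without libraries 2 and 4 the log2 fold change of Kdm5d was -0.12 (adjusted p = 0.536); its call was also lost without Myocd-LSD1 library 2 or 4 (adjusted p = 0.118 and 0.109) and without any 1 of the Myocd-LSD1NF libraries (0.0541 to 0.0909).

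Markers of other cell types were read beside these results. The filter of 1 TPM in at least 3 of the 15 libraries can be met by the libraries of 1 line alone. A marker present only there is then tested, so counts of risen markers are partly set by the filter. The endothelial, leukocyte, and epithelial and mesothelial lists each held 20 markers, most of them not tested. Of 11 tested fibroblast markers 3 rose, 2 fell and 6 were not called. Their median log2 fold change was 0.07, and -0.17 without Myocd-LSD1NF library 4. Summed levels were 294 to 572 TPM in Myocd-LSD1, 309 to 465 TPM in Myocd-LSD1NF and 443 to 509 TPM in control. Scara5, a ferritin receptor of fibroblasts, led the rises with 71.3, 28.5, 31.8 and 25.8 TPM in Myocd-LSD1, against 2.23, 4.12, 1.67 and 2.42 TPM in Myocd-LSD1NF (log2 fold change 3.40 ± 0.33, adjusted p = 2.6e-06), while Cd34 and Tcf21 were listed at 0 in both lines. Of 4 tested endothelial markers 2 rose, with sums of 64.6 to 82.3 TPM in Myocd-LSD1 and 24.5 to 37.3 TPM in Myocd-LSD1NF, while Cdh5, Kdr and Cldn5 were listed at 0 in both lines. Of 3 tested leukocyte markers 2 rose, with sums of 110.4 to 260.1 TPM in Myocd-LSD1 and 69.5 to 178 TPM in Myocd-LSD1NF, while Ptprc and Itgb2 were listed at 0 in both lines.

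Of 5 tested epithelial and mesothelial markers 3 rose, with sums of 81 to 266 TPM in Myocd-LSD1 and 33.2 to 61.3 TPM in Myocd-LSD1NF. Msln, mesothelin, had 50.3, 189, 7.88 and 135 TPM in Myocd-LSD1, against 0.96, 1.76, 0.71 and 1.30 TPM in Myocd-LSD1NF (log2 fold change 4.77 ± 0.68, adjusted p = 0.000101), with Myocd-LSD1 libraries 2 and 4 highest, while Krt18, Cldn7, Wt1 and Upk1b were listed at 0 in both lines. Of 7 cartilage and bone markers 3 rose and 1 fell, with sums of 11753 to 21608 TPM in Myocd-LSD1 and 11446 to 24621 TPM in Myocd-LSD1NF, and Sp7, Chad and Cnmd were listed at 0. Runx2 and Sox9, described above, make up a small part of these sums, which rest on other members of the list. Of 5 neural markers 2 rose and 1 fell, with sums of 15.7 to 38.8 TPM in Myocd-LSD1 and 8.51 to 28.8 TPM in Myocd-LSD1NF, and Sox10, Sox2 and Rbfox3 were listed at 0. None of 3 adipocyte markers was called by limma, and 0 had an unadjusted p under 0.05. Of 8 striated muscle markers 1 was called: Tnnc1, slow and cardiac troponin C, had 18.5, 6.69, 71.6 and 12.5 TPM in Myocd-LSD1, against 453, 445, 769 and 258 TPM in Myocd-LSD1NF (log2 fold change -4.52 ± 0.51, adjusted p = 1.24e-05). In bulk samples, fewer cells of a type and less RNA per cell cannot be told apart, and the part of any minor cell type in these results was not tested.

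**Figure D5:**
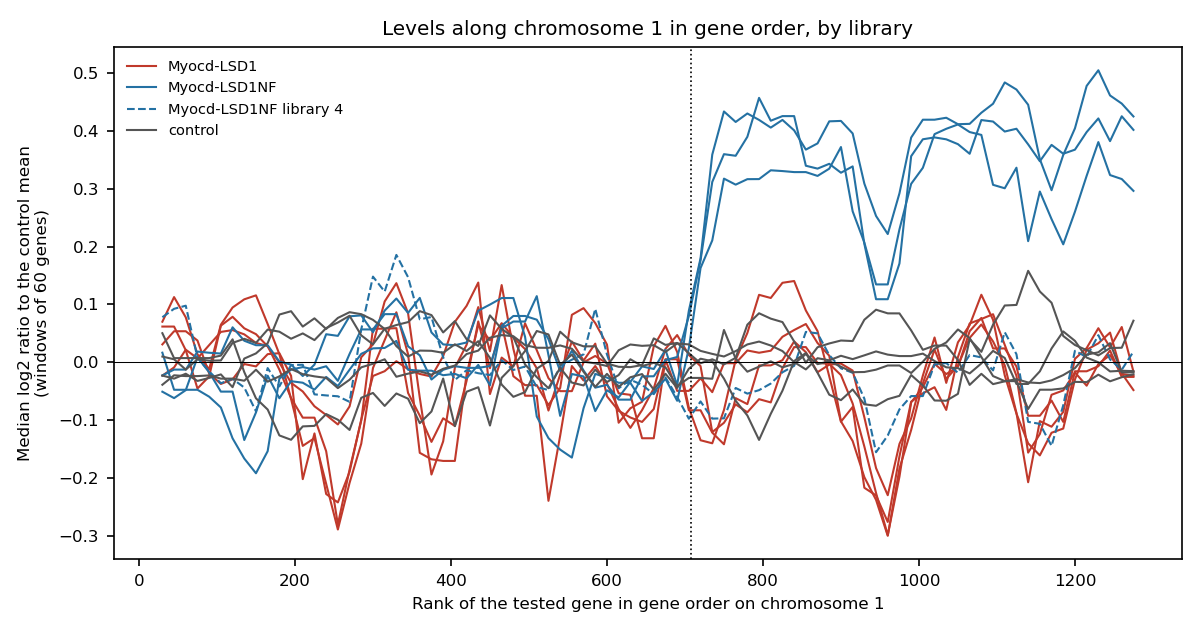
Median log2 ratio to the control mean in windows of 60 tested genes along the RefSeq gene order of chromosome 1, for each Myocd-LSD1 (red), Myocd-LSD1NF (blue, library 4 dashed) and control (grey) library, each centred on its median over all placed genes. Past the dotted line, where the run of 604 genes begins, Myocd-LSD1NF libraries 1 to 3 lie above the other libraries drawn. The line was placed by the difference of Myocd-LSD1NF libraries 1 to 3 from library 4.

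Acta2 also lies in a long run of neighbouring genes on chromosome 1 that was chosen after the data were seen. Its start was set where the difference of Myocd-LSD1NF libraries 1 to 3 from library 4 changed most along the chromosome. The split of these libraries in the run is therefore part of its definition and no separate finding. The shares of calls in the run use the same libraries and follow in part from that choice. It holds 604 of the 10614 tested genes that could be placed in the RefSeq order, Adm to Grk5. In the run 170 genes were lower in Myocd-LSD1 (28.1%) and 49 higher (8.11%), against 11.9% lower and 20.2% higher elsewhere, and the median log2 fold change was -0.23 against 0.09 elsewhere. Relative to the other placed genes, the median log2 ratio of the run to control was -0.04 in each Myocd-LSD1 library, 0.37, 0.41 and 0.32 in Myocd-LSD1NF libraries 1 to 3 and -0.04 in Myocd-LSD1NF library 4. Acta2, Scd, Il33, Efemp2 and Frat2 are among the named genes that lie in the run. Acta2 was at 3979 TPM in Myocd-LSD1NF library 4, which did not share the shift, and no Myocd-LSD1 library exceeded 2894 TPM. With the genes of the run left out of the count, and no new fit, 3658 of the calls remain, 2282 higher and 1376 lower.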

How the data were processed

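Per the labels' protocols, RNA of rat aortic SMC was extracted with an RNeasy kit and DNase I, and polyA libraries were made with a stranded TruSeq kit. The authors deposited TPM, 1 column for each of 15 libraries and 1 row for each of 32623 gene entries, and columns sum alike, with no sign of a further scaling. The sources used here name no aligner, counting tool, build or annotation, and sequencing depth is unknown. The authors' group mean columns were not used. A total of 26 symbols turned into dates were kept under their identifiers.

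Genes with at least 1 TPM in at least 3 of 15 libraries were kept (12207; 20416 were excluded). Log2(TPM + 1) was fitted with limma 3.58.1 in R 4.3.3, with 1 mean per group over all 15 libraries and eBayes with trend, and Myocd-LSD1 was contrasted with Myocd-LSD1NF (two-sided, Benjamini-Hochberg over all 12207 genes, threshold 0.05). The procedure was run on simulated data with noise drawn separately for each gene and library. Such data hold no shift shared by many genes of a library, so they do not give the error rate of these calls. Control and PDGF-BB libraries otherwise enter as levels. Tables and plots used pandas 2.3.3 and numpy 2.4.6 in Python 3.11.15, with matplotlib 3.10.9.

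The comparison, the 33 gene lists and the genes shown were chosen with earlier results of these data known. The rule for named genes takes Myocd, Kdm1a, Acta2, Tagln, Myh11 and Cnn1. It takes the 8 largest rises and 8 largest falls by fold change, with at least 5 TPM in the higher line, and by difference in mean TPM, among called genes whose lines do not overlap. It takes up to 4 called members of each list and 2 in the other direction, and 4 rises and 4 falls with a control mean within the Myocd-LSD1 range. Not all genes it takes are described, and some are not reported here. Srf, Rnd3, Pde5a, Mrvi1, Cacna1c, Npr3, Mef2c, Fbn1, Lox, Col4a1, Col4a5, Frzb and Axin2 fall outside it and were chosen after their values were seen. List members not matched by symbol, such as Prkg1, Col1a2 and Pecam1, were not used here. Promoter windows and gene order are RefSeq's for GRCr8, which need not be the build of the table, and 10614 tested genes could be placed by symbol.

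The alternatives tried were quantile normalization, median-of-ratios scaling, a pseudocount of 0.1 or of 5, all genes without a filter, a mean of at least 5 TPM, a block for the replicate number, a fit of the 8 libraries alone, limma array weights, and leaving out each library or Myocd-LSD1 libraries 2 and 4 together. Leaving the genes of the chromosome 1 run out of the counts, with no new fit, was added after seeing the data.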

Additional observations from a re-analysis of the deposited data

Results flagged for a closer look

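For the 118 genes described, each line's 4 values were searched for a single library that stood far from the others of its line. Of 236 sets of 4 values, 21 had one, where about 5% would be flagged by chance if the sets were independent. The sets come from the same 8 libraries and are not independent, so the 21 cannot be set against that share. Library 4 of Myocd-LSD1NF was the library that stood apart in 15 of the 21. It was lowest for Acta2 (3979 TPM), Gucy1b3 (19.3 TPM), Eln (2292 TPM), Nid1 (0.65 TPM), Pcdh7 (51.0 TPM), Cdh11 (4.63 TPM), Igfbp2 (594 TPM) and Gdf6 (16.6 TPM). It was highest for Runx2 (1.30 TPM), Col6a2 (129 TPM), Col6a3 (0.18 TPM), Tgfbi (14.4 TPM), Lamb3 (2.01 TPM), Tfec (0.72 TPM) and Wfdc18 (18 TPM). In all 15 the library lay on the side of its line nearer to Myocd-LSD1, and it stayed outside the Myocd-LSD1 range. Many described genes were chosen because the lines do not overlap, so staying outside was partly set by the choice. Among genes not flagged, library 4 was also the farthest from Myocd-LSD1 for some, such as Rgs4, Rgs5, Epyc, Ptn, Vegfd, Scd and Hey2.

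Within Myocd-LSD1, library 1 was highest for Rgs5 (1.79 TPM) and Efemp2 (1116 TPM). Library 3 was highest for Gucy1b3 (0.15 TPM) and Pcdh7 (0.78 TPM) and lowest for Akr1b10 (142 TPM). Library 2 of Myocd-LSD1NF was highest for Pcolce (1092 TPM). The cause of these deviations was not tested.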

How the results depend on the processing

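The 3877 calls ranged between 2896 (a fit of the 8 libraries of the lines alone) and 5021 (array weights) over all settings tried, and between 3145 and 4039 when 1 library was left out. No gene called both as reported and under an alternative changed direction. Of the 3877 reported calls, 2558 (66.0%) were kept without Myocd-LSD1 libraries 2 and 4 together. In the fit of the 8 libraries alone 2860 (73.8%) were kept. The 1286 genes changed at least 2-fold became 682 with a pseudocount of 5 and 850 with a mean of at least 5 TPM, which tests fewer genes. Their number rose to 1655 with a pseudocount of 0.1 and to 1581 with array weights. The 1546 lower calls became 2448 with array weights and 936 without Myocd-LSD1 libraries 2 and 4 together; the cause was not tested. With 1 library left out, higher calls ranged between 1751 and 2418, lower calls between 1148 and 1637, and 2-fold changes between 1204 and 1450. Many described genes were chosen because the lines do not overlap, so their stability is not that of all calls. Of 2116 values of the described genes under the alternatives, 2084 kept their direction and their side of the threshold. Uncalled genes turned direction in 3: Col3a1 without Myocd-LSD1 libraries 2 and 4 (-0.55) and without Myocd-LSD1 library 2 (-0.092, in a range up to 0.74 over single libraries left out), and Eif2s3y without libraries 2 and 4 (0.18). No described gene lost its call under either other scaling or pseudocount, while Kdm5d lost it with no filter on low genes (adjusted p = 0.0657) and in the fit of the 8 libraries alone (adjusted p = 0.124), by limma. Deviations of same-numbered libraries of the lines correlated at 0.20, -0.16, 0.18 and 0.02, against -0.291 to 0.245 for libraries of different number. So few values cannot tell whether the numbers mark pairs. With the replicate number as a block there were 4232 calls, and no described gene lost its call. TPM keep no depth, so the counting error of low values, such as those under 1 TPM, is unknown. Differences between the lines other than the constructs cannot be told apart from the constructs, with 1 line each.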
